A study of Mus musculus with 2 samples.

Results

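The genes described here encode the machinery that docks, primes, fuses and recycles synaptic vesicles. They are 48 genes chosen by symbol from their known roles, with earlier results of these data already known. Comparisons of their levels with all genes are therefore not independent of that choice. All 48 were found among the 43346 mouse genes of the deposited gene tables. Purkinje cells, which alone carry the output of the cerebellar cortex and release GABA, were sequenced as 2 pools of 50 cells each; the mice were adult males, 8 months old, wild type and C57Bl6 (strain label B6NCrl). The labels' protocol links name laser capture, by which cells are cut from a tissue section, and a Smart-seq protocol is linked for pool 2, while for pool 1 the extraction protocol is given as not provided. The pools have separate biosamples but a common donor identifier, so separate animals are not established and their spread may be technical. There was 1 group and no control, so the values below are levels and their spread over 2 pools, and no test between conditions exists.

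At a nerve terminal, SNARE proteins of the vesicle and of the plasma membrane zip together and pull the membranes into contact. Munc13 and RIM proteins prepare the vesicle for fusion, complexins hold and assist the SNARE bundle, synaptotagmins trigger fusion when calcium enters, and NSF with its SNAP adaptors takes the spent bundle apart. In Purkinje cells this machinery serves the inhibitory terminals of the axon in the cerebellar and vestibular nuclei, and several of the same proteins also carry vesicles to the cell body and dendrites.

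Of the 48 genes, 42 reached 1 TPM or more in each pool, against 51.7% of 21474 protein-coding genes and 28.8% of all mouse genes. TPM is the deposited measure of transcript abundance, corrected for length and scaled to the same total in each library. The median of the mean TPM was 8.77 over the 48 genes and 1.51 over the protein-coding genes. The mean TPM was 100 or more for 4 genes (Snap25, Napa, Syt11 and Rab3a), between 10 and 100 for 19, between 1 and 10 for 19, and under 1 for 6. Together they took 0.263% of the mouse TPM in pool 1 and 0.230% in pool 2, and Snap25 alone made up 46.4% and 42.9% of that.

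**Figure D1:**
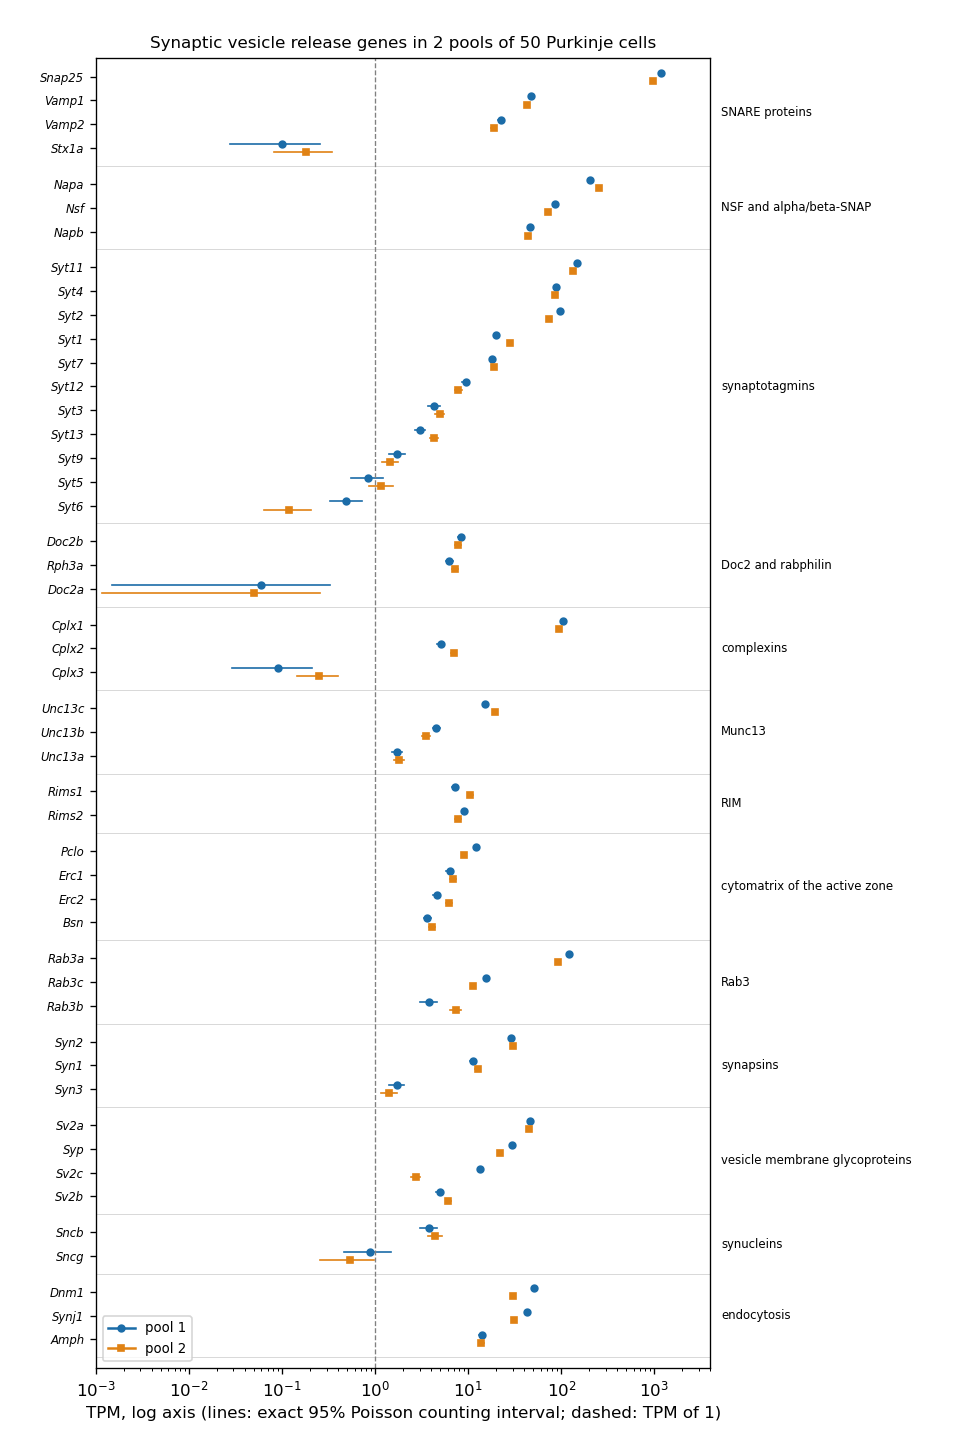
TPM of each of the 48 genes on a log axis in pool 1 (circles) and pool 2 (squares), grouped by role; lines are exact 95% Poisson intervals of the counts, which cover counting error only, and the dashed line marks a TPM of 1. Snap25 stands at the right in both pools, and Doc2a, Stx1a, Cplx3, Syt6 and Sncg lie left of the dashed line in both.

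The libraries held 23830685 expected counts in pool 1 and 27907662 in pool 2, with 1.40% and 0.940% of them on spike-in RNAs. All 12 Purkinje cell markers were detected, with summed levels of 21486 TPM in pool 1 and 20843 TPM in pool 2, so the markers of the labelled cell type were present. Markers of other cells were present as well. The 10 markers of Bergmann glia and astrocytes were all detected and summed to 4405 and 4639 TPM in pools 1 and 2, and the 10 granule cell markers, of which 7 were detected, summed to 116 and 146 TPM. The sums were 53.8 and 71.2 TPM for molecular layer interneurons (6 of 6 detected), 233 and 226 TPM for oligodendrocytes (8 of 8), 108.4 and 136 TPM for endothelial cells and pericytes (6 of 7), 20.7 and 33.3 TPM for microglia (5 of 8), and 651 and 2274 TPM for blood (5 of 5). For Golgi or glycinergic neurons, 3 of 5 were detected with sums of 359 and 291 TPM, of which Npy, also known from other cells, gave 350.4 and 269 TPM. Slc17a6, the vesicular glutamate transporter of climbing fibres, and Lmx1a of unipolar brush cells had no counts in either pool. Such a lack of counts does not show that these fibres or cells were absent. Calb2 was the detected 1 of 3 unipolar brush cell markers. A gene's level in such a pool cannot be assigned to Purkinje cells alone: fewer cells of a type and less RNA per cell cannot be told apart.

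The SNARE genes showed the widest range of any role. Snap25 encodes the plasma membrane SNARE that supplies a pair of helices to the bundle (chr2:136713453-136782428, + strand; coordinates on GRCm38, mm10). It had 1187 TPM in pool 1 and 971 TPM in pool 2, from 47786 and 49658 expected counts, and was the highest of the 48 genes in both. The gene carries a pair of alternative copies of exon 5, known as 5a and 5b, of which 5b is the form known to prevail in the adult brain. Snap25-201, which carries the downstream copy, 5b, held 99.4% and 99.2% of the gene's TPM in pools 1 and 2. Snap25-202, with the upstream copy, 5a, held 0.17% and 0.21%, and both copies are shown because this exon sets the coding isoforms apart. Both copies are 118 nt long and 31 positions differ (capitals), an identity of 73.7%. The sequences are from GENCODE M21 transcripts, 5′ to 3′ on the + strand, at chr2:136770057-136770174 for Snap25-201 and chr2:136769743-136769860 for Snap25-202.
Snap25-201: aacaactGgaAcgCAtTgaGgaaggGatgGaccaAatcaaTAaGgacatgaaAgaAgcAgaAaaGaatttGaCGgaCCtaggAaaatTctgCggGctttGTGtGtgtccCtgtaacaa
Snap25-202: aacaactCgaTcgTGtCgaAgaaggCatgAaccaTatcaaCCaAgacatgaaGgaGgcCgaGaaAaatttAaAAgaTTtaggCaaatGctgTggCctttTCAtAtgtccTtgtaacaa

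The vesicle SNARE of the pair was led by Vamp1 rather than Vamp2. Both encode synaptobrevins, the vesicle partner of Snap25 and syntaxin, and Vamp1 is the paralog known from hindbrain, spinal cord and other fast-firing neurons. Vamp1 (chr6:125215551-125245964, + strand) had 47.6 TPM in pool 1 and 43.3 TPM in pool 2. Vamp2 (chr11:69088490-69092384, + strand) had 22.6 and 18.8 TPM in pools 1 and 2. Vamp1 therefore made up 68.8% ± 1.29 of their sum (SD, n = 2), 67.8% in pool 1 and 69.7% in pool 2, and 73.8% by expected counts. Their coding sequences are 357 and 351 nt long and share 76.3% of 350 aligned bases. The 90-base stretch in which they are most alike is shown because reads from it have the fewest positions to tell the paralogs apart: 91.1% of its bases are shared, and capitals mark those that differ. It spans coding positions 103 to 192 in Vamp1 and 97 to 186 in Vamp2, counted from the A of the start codon on GENCODE M21 transcripts. The standard deviation that the authors deposited for the division of shared reads was below 0.01 counts for Vamp1, Vamp2, Cplx1 and Cplx2, and for 36 of the 48 genes in both pools; its highest value was 17.6 counts, for Syn3 in pool 2.
Vamp1: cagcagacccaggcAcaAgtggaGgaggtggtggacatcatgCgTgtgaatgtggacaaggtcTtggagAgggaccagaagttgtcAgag
Vamp2: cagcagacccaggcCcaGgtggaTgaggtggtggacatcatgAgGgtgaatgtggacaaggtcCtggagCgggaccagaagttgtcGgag

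The syntaxin of the list was close to the floor. Stx1a, a plasma membrane syntaxin of the fusion bundle, had 0.10 TPM in pool 1 and 0.18 TPM in pool 2, from 4 and 9 expected counts. All of those counts were assigned to Stx1a-205, a retained-intron transcript, and none to a complete coding transcript. Among the 4 plasma membrane syntaxins set side by side here, Stx4 and Stx3 stood higher, with means of 13.4 ± 2.75 and 10.6 ± 0.191 TPM, and Stx2 had 2.95 ± 0.141 TPM (SD, n = 2 each). The order of Stx4 and Stx3 rested on the scale. Over complete coding transcripts Stx3 had 10.48 and 10.75 TPM in pools 1 and 2, and Stx4 had 5.12 and 4.04 TPM. Stx1a was the lowest of the 4 in both pools, with 0.507% ± 0.150 of their sum.

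Genes that disassemble SNARE bundles were high. Napa encodes alpha-SNAP, the adaptor that brings NSF to the bundle (chr7:16098458-16117975, + strand). It had 202 TPM in pool 1 and 254 TPM in pool 2, the second level of the 48 genes. Nsf, the ATPase that pulls the bundle apart (chr11:103821782-103954056, − strand), had 85.2 TPM in pool 1 and 72.8 TPM in pool 2. Napb, beta-SNAP, known as the brain form of the adaptor, had 46.4 and 43.4 TPM in pools 1 and 2. Napa made up 83.4% ± 2.91 of the alpha- and beta-SNAP sum (SD, n = 2), and 66.3% by expected counts. Napg, gamma-SNAP, which is not among the 48 genes, had 99.95 TPM in pool 1 and 131 TPM in pool 2, and with it added the share of Napa was 58.7% ± 0.974. Over complete coding transcripts Napg had 26.13 and 24.75 TPM in pools 1 and 2, below Napb with 43.35 and 32.19 TPM. By expected counts Napg, with 2485 and 3367, was also below Napb, with 3912 and 4633.

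Among the 11 synaptotagmins the highest level was not that of a calcium sensor for fast release. Syt11 (chr3:88744700-88775164, − strand), a synaptotagmin that lacks calcium binding and is known for restraining endocytosis, had 147 TPM in pool 1 and 132 TPM in pool 2. It took 37.3% ± 0.745 of the synaptotagmin TPM (SD, n = 2) and led in each pool. Syt4, a synaptotagmin of dense-core and other vesicles whose first calcium-binding domain is altered, had 88.4 and 86.2 TPM in pools 1 and 2. Its share of the synaptotagmin TPM was 23.3% ± 0.828.

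Fast calcium sensors followed. Syt2, the sensor known from hindbrain and spinal synapses, had 95.9 TPM in pool 1 and 74.4 TPM in pool 2. Syt1, the sensor best known from the forebrain, had 19.8 and 28.4 TPM in pools 1 and 2. Syt2 was thus above Syt1 in both pools, with a share of 22.7% ± 2.84 against 6.49% ± 1.98 for Syt1 (SD, n = 2 each). Syt2 and Syt4 changed places between the pools, Syt2 being higher in pool 1 and Syt4 in pool 2, so their order does not hold beyond the spread.

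The position of Syt2 rested on a short transcript. Syt2-203 (chr1:134646677-134741829, + strand) is 383 nt long and is annotated as incomplete at its end. It held 67.7% of the gene's TPM in pool 1 and 70.04% in pool 2, yet only 366 and 373 of the 3265 and 2986 expected counts. Of its bases, 379 (99.0%) also lie in exons of Syt2-201 or Syt2-204, the complete coding transcripts of 6879 and 3386 nt. Its join of exon 1 to exon 2, from 134646835 to 134740835, is in neither of them. Syt2-204 has a further exon between these positions (134663790-134663998), and Syt2-201 starts at 134709300. Over complete coding transcripts alone Syt2 had 25.4 TPM in pool 1 and 17.6 TPM in pool 2. On the same scale Syt1 had 14.2 and 20.0 TPM in pools 1 and 2, so that Syt2 was above Syt1 in pool 1 and below it in pool 2. By expected counts Syt2 held 10.5% of the synaptotagmin sum and Syt1 6.91%, with Syt1 at 1505 counts in pool 1 and 2732 in pool 2. The lead of Syt11 held on both scales, at 45.7% over complete coding transcripts and 44.8% by expected counts.

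**Figure D2:**
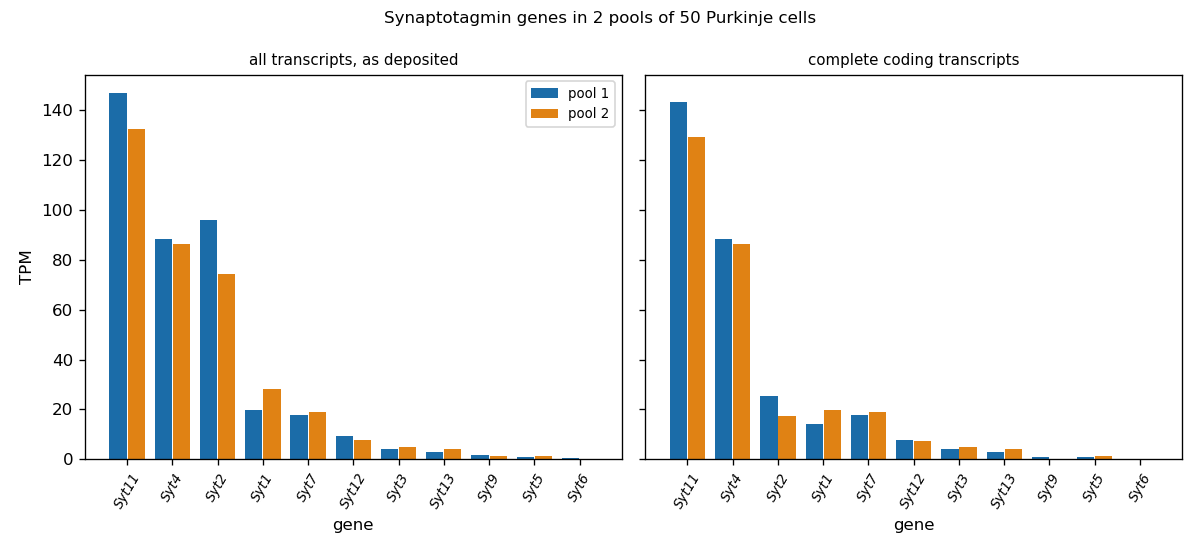
TPM of the 11 synaptotagmin genes in pool 1 (left bar of each pair) and pool 2 (right bar), from all transcripts as deposited and from complete coding transcripts alone. Syt11 and Syt4 keep their height in both panels, and Syt2 has 95.9 and 74.4 TPM in the left panel against 25.4 and 17.6 TPM in the right.

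The remaining listed synaptotagmins spread over a wide range. Syt7, a high-affinity sensor linked to asynchronous release and facilitation, had 17.8 TPM in pool 1 and 19.1 TPM in pool 2, all of it on complete coding transcripts. Syt12 had 9.43 and 7.85 TPM in pools 1 and 2, and Syt13 had 3.04 and 4.25 TPM; neither has the residues for calcium binding. Syt3, a calcium-binding member, had 4.30 TPM in pool 1 and 4.93 TPM in pool 2, carried mainly by Syt3-201 in pool 1 (84.3%) and by Syt3-202 in pool 2 (79.7%). Syt9, a further calcium sensor, had 1.72 and 1.46 TPM in pools 1 and 2. Syt5 and Syt6, calcium-binding members, were under the threshold of 1 TPM in at least 1 pool: Syt5 had 0.83 TPM in pool 1 and 1.16 TPM in pool 2, and Syt6 had 0.49 and 0.12 TPM. Their expected counts were 27 and 48 for Syt5 and 27 and 13 for Syt6.

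The other calcium sensors were Doc2 proteins and rabphilin, which carry the same type of calcium-binding domain. Doc2b, a high-affinity sensor linked to spontaneous release, had 8.38 TPM in pool 1 and 7.72 TPM in pool 2. Doc2a had 0.06 and 0.05 TPM in pools 1 and 2, from 1.03 and 1.09 expected counts on a single transcript of the nonsense-mediated decay class. Doc2b thus made up 99.3% ± 0.0477 of their sum (SD, n = 2). Rph3a, rabphilin, an effector of Rab3, had 6.27 TPM in pool 1 and 7.24 TPM in pool 2.

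Complexins were dominated by 1 gene. Cplx1 (chr5:108518554-108550024, − strand), which clamps and assists the SNARE bundle, had 104 TPM in pool 1 and 94.0 TPM in pool 2. Cplx2, its close relative, had 5.08 and 6.95 TPM in pools 1 and 2. Cplx3, a form known from retinal ribbon synapses, had 0.09 and 0.25 TPM in pools 1 and 2, from 5 and 17 expected counts. Cplx1 made up 94.1% ± 1.68 of the complexin TPM (SD, n = 2) and 87.5% by expected counts, and led in both pools. Cplx1 and Cplx2 have coding sequences of 405 nt each that share 79.8% of their bases. The 90 bases in which they are most alike are the first of the coding sequence, shown with differing bases in capitals (87.8% shared) to show how few bases there set the leading paralog apart.
Cplx1: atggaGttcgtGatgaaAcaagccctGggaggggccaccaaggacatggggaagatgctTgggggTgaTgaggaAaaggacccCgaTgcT
Cplx2: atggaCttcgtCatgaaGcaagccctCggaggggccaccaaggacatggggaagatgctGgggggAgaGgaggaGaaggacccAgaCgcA

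Of the priming factors, Unc13c led the Munc13 genes. Unc13c, or Munc13-3, the paralog known mainly from the cerebellum (chr9:73479422-73968966, − strand), had 15.1 TPM in pool 1 and 19.3 TPM in pool 2, and made up 74.5% ± 5.42 of the Munc13 TPM (SD, n = 2). Unc13b, Munc13-2, had 4.55 and 3.54 TPM in pools 1 and 2. Unc13a, Munc13-1, the main form of forebrain synapses, had 1.72 and 1.80 TPM in pools 1 and 2. Unc13c is also known from granule cells. Unc13c was lower in pool 1. Of the 10 granule cell markers, of which 7 were detected, 8 were lower in pool 1 as well. The other 2, Zic2 and Barhl2, were higher in pool 1. Over all 13210 genes with a mean of at least 1 TPM, 58.4% were higher in pool 1. None of the 10 markers passed 1.5-fold, and Fat2 and Slc17a7, among the 8, were under the detection threshold. The highest markers, Gabra6 and Neurod1, stood at 38.5 and 51.2 TPM and at 23.6 and 30.7 TPM in pools 1 and 2. What part granule cell RNA had in the level of Unc13c was not tested.

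The RIM proteins tether vesicles and calcium channels at the active zone, and neither gene led. Rims1 had 7.23 TPM in pool 1 and 10.6 TPM in pool 2. Rims2 had 9.10 and 7.79 TPM in pools 1 and 2, so that Rims2 was higher in pool 1 and Rims1 in pool 2. The share of Rims1 was 50.9% ± 9.37 (SD, n = 2), and by expected counts it was 46.4%. Much of the Rims1 level rested on Rims1-207, a coding transcript of 2294 nt. It held 40.1% and 54.5% of the gene's TPM in pools 1 and 2, from 126 and 317 of the 587 and 986 expected counts.

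The large scaffolds of the active zone were all detected at low to middle levels. Pclo, piccolo, had 12.3 TPM in pool 1 and 8.93 TPM in pool 2. Bsn, bassoon, its relative, had 3.63 and 4.08 TPM in pools 1 and 2. Piccolo made up 72.9% ± 6.01 of their sum (SD, n = 2). Most of these values lie on transcripts other than the full coding form: Bsn-202, incomplete at its ends, held 97.1% and 98.6% of the Bsn TPM in pools 1 and 2, and complete coding transcripts held 11.03% and 7.84% of the Pclo TPM. Erc1 and Erc2, ELKS scaffolds that bind RIM, had 6.31 and 6.83 TPM and 4.56 and 6.23 TPM in pools 1 and 2. Erc1 led by TPM with 55.2% ± 4.07, but Erc2 led by expected counts with 51.1% and over complete coding transcripts with 62.2%.

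Rab3 proteins are vesicle GTPases that bind RIM and rabphilin. Rab3a (chr8:70754679-70758677, + strand) had 122 TPM in pool 1 and 92.7 TPM in pool 2, and took 84.8% ± 2.16 of the Rab3a, Rab3b and Rab3c sum (SD, n = 2). Rab3c had 15.5 and 11.2 TPM in pools 1 and 2. By expected counts, which are not corrected for length, the lead of Rab3a narrowed to 53.7% with 3115 and 2990 counts, beside 2585 and 2373 counts for Rab3c, whose transcript is 8500 nt long. Rab3b was the lowest of the 3 with 3.77 TPM in pool 1 and 7.34 TPM in pool 2.

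Proteins on the vesicle itself followed. Among the synapsins, which anchor vesicles to each other and to actin, Syn2 had 29.2 TPM in pool 1 and 30.6 TPM in pool 2. Syn1 had 11.4 and 12.6 TPM in pools 1 and 2, and Syn3 had 1.70 and 1.42 TPM. The share of Syn2 was 68.8% ± 0.327 (SD, n = 2), with the order Syn2, Syn1, Syn3 in both pools. Syp, synaptophysin, a tetraspan partner of synaptobrevin, had 29.7 TPM in pool 1 and 22.1 TPM in pool 2.

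SV2 glycoproteins are transporter-like proteins of the vesicle membrane that act on its readiness to fuse. Sv2a (chr3:96181151-96195521, + strand), the form found at most synapses and the binding site of the antiepileptic levetiracetam, had 45.8 TPM in pool 1 and 45.0 TPM in pool 2. Sv2c had 13.4 and 2.72 TPM in pools 1 and 2, and Sv2b had 4.97 and 6.11 TPM. Sv2a led with 77.5% ± 8.66 of the SV2 TPM (SD, n = 2), and the order of Sv2b and Sv2c differed between the pools. Among the synucleins, presynaptic chaperones of SNARE assembly, Sncb had 3.75 and 4.38 TPM in pools 1 and 2. Sncg had 0.87 and 0.53 TPM, from 13 and 10 expected counts, below the threshold in both.

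The 3 genes of vesicle retrieval on the list were in the upper range. Dnm1, dynamin 1, the GTPase that cuts vesicles from the membrane, had 51.4 TPM in pool 1 and 30.3 TPM in pool 2. Synj1, synaptojanin 1, the lipid phosphatase that strips the clathrin coat, had 42.7 and 31.4 TPM in pools 1 and 2. Amph, amphiphysin, which recruits dynamin to the neck of the vesicle, had 14.0 and 13.8 TPM in pools 1 and 2. Dnm1 was not the highest dynamin: Dnm3 had 74.3 TPM in pool 1 and 54.6 TPM in pool 2, or 58.2% ± 2.37 of the dynamin sum against 36.2% ± 4.14 for Dnm1 (SD, n = 2 each). Of the Synj1 TPM, complete coding transcripts held 11.5% and 6.06% in pools 1 and 2, and Synj1-208, incomplete at its ends, held 56.6% and 77.04%.

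Across the 13 families with 2 or more listed genes, 12 had a gene over 50% of the family's TPM, the synaptotagmins being the exception. Several families held only 2 listed genes, and there a gene passes 50% unless the shares are equal. The count was therefore partly fixed in advance, and it was 10 with the other paralogs reported here added. The leader was the same in both pools in every family but the RIM proteins. By expected counts the leader differed for the RIM proteins and the ELKS proteins. With the other paralogs reported here added, the leader differed for the VAMPs, where Vamp8, known from non-neuronal secretion, had 29.8% ± 0.0729 against 25.2% ± 1.40 for Vamp1 (SD, n = 2 each).

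**Figure D3:**
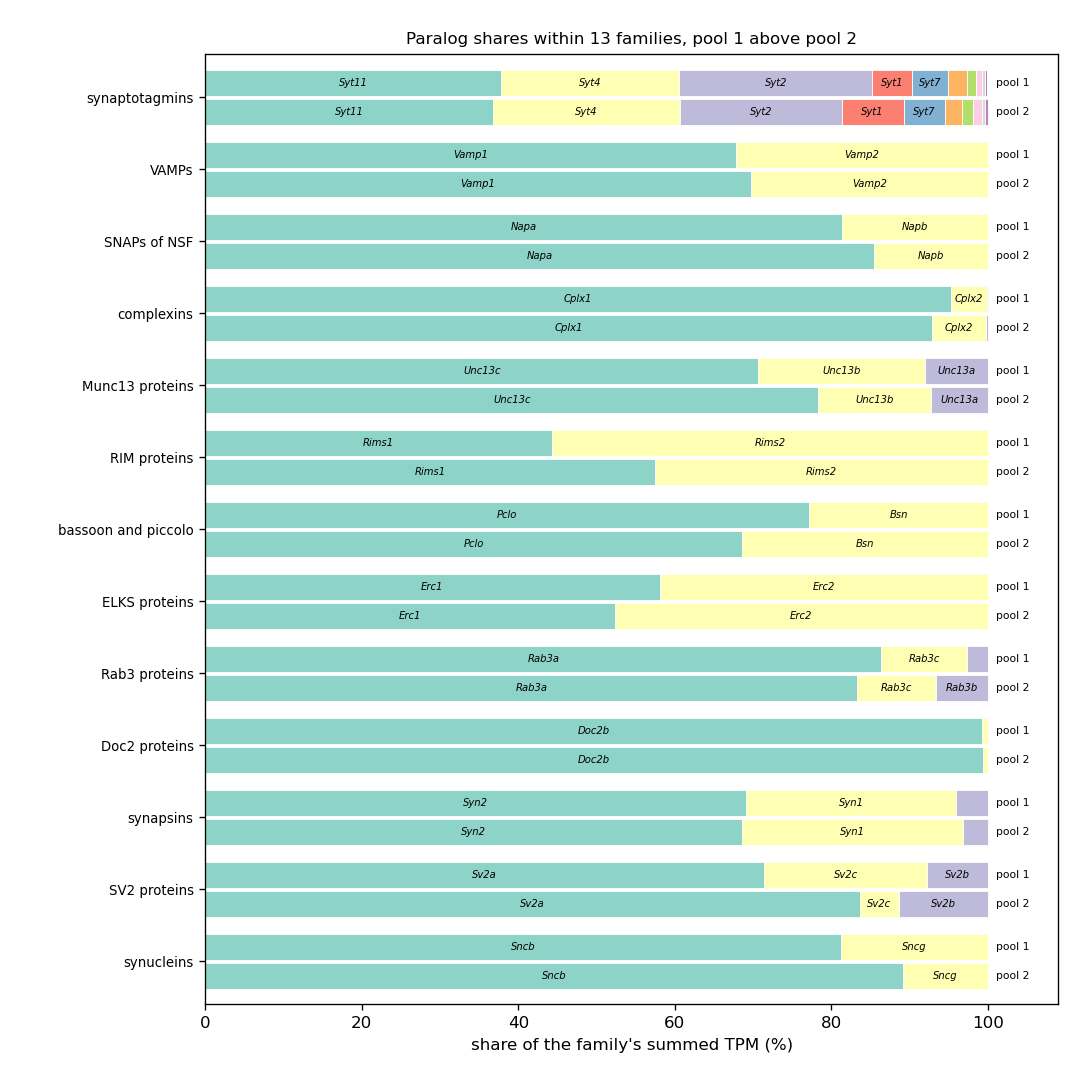
Share of each listed gene in the summed TPM of its family (%), pool 1 above pool 2, genes in order of their mean share and named where the share is wide enough. Cplx1, Doc2b, Napa and Rab3a fill most of their bars in both pools, and the RIM bars are divided almost evenly, with Rims2 ahead in pool 1 and Rims1 in pool 2.

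By rank of mean TPM, the ranges of the pools overlapped in 35 of the 47 neighbouring pairs of genes, and 12 pairs were apart. No such count was made over all genes. Ranges of 2 values can also be apart for genes of equal level, so the 12 do not establish an order. Snap25 was apart from Napa, Napa from Syt11 and Syt11 from Rab3a, with no overlap between pools. The place of Napa before Syt11 rested on its short transcripts: over complete coding transcripts Napa had 127 TPM in pool 1 and 157 TPM in pool 2, and Syt11 had 143 and 129 TPM, so the ranges overlapped. By expected counts Napa, with 6705 in pool 1 and 10550 in pool 2, was below Syt11, with 12742 and 14188. Rab3a and Cplx1 overlapped, with 92.7 to 122 TPM for Rab3a and 94.0 to 104 TPM for Cplx1, and so did Syt4 with Syt2 and Syt2 with Nsf.

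Other genes of vesicle release and recycling, 78 found of 79 listed, were detected in 63 cases. Of 10 further SNARE genes all were detected, led by Snap47, a relative of Snap25 with roles in the secretory pathway, with 182 TPM in pool 1 and 215 TPM in pool 2, and by Vamp8 with 54.1 and 53.4 TPM. Among SNARE regulators, 6 of 7 were detected, among them Dnajc5, the vesicle chaperone cysteine string protein, which had 38.6 TPM in pool 1 and 32.9 TPM in pool 2. Of the 25 further endocytosis genes 22 were detected, with the clathrin adaptor subunits Ap2s1 at 376 and 442 TPM and Ap2m1 at 192 and 187 TPM in pools 1 and 2. All 8 further vesicle membrane genes were detected, led by Syngr3, synaptogyrin 3, at 54.6 and 62.5 TPM and Sypl, a synaptophysin relative, at 41.3 and 31.7 TPM in pools 1 and 2. For the cytomatrix, 8 of 10 were detected, led by the scaffold genes Lin7c at 31.6 and 32.5 TPM and Lin7b at 22.2 and 41.4 TPM in pools 1 and 2. All 4 further Rab3-related genes were detected, led by Rab3gap1, which inactivates Rab3, at 33.5 and 19.2 TPM and by Rab3d at 5.57 and 2.92 TPM in pools 1 and 2.

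Several further paralogs were at or near the floor. Of 6 further synaptotagmins 2 were detected: Syt10 had 22.9 TPM in pool 1 and 15.9 TPM in pool 2, and Syt14 had 7.84 and 4.34 TPM. Syt8 had no counts in either pool. Cplx4, a retinal complexin, had no counts in pool 1 and 0.14 TPM in pool 2. Unc13d, a Munc13 of immune cells, had 0.87 and 0.84 TPM in pools 1 and 2, and Baiap3, a further relative, had 0.04 and 0.07 TPM. Rims4 was detected at 2.30 and 2.75 TPM in pools 1 and 2, while Rims3 had 0.77 TPM in pool 1 and 1.62 TPM in pool 2. Doc2g had 0.81 and 0.70 TPM in pools 1 and 2.

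Between the pools the 48 genes moved little, and about as all genes did. Over the 42 genes whose mean reached 1 TPM, the median log2 ratio of pool 1 over pool 2, on TPM plus a pseudocount of 1, was 0.07, and over 13210 mouse genes it was also 0.07. Of the 42 genes, 24 were higher in pool 1 and 18 lower, and 58.4% of all genes were higher. With 1 library on each side no test of a ratio was possible. Only Dnm1, Sv2c and Rab3b passed 1.5-fold, 3 of 42 beside 11.5% of all genes: Dnm1 and Sv2c were higher in pool 1 (7.25% of all genes) and Rab3b lower (4.27%). From a mean of 10 TPM, Dnm1 alone of 23 genes passed, beside 7.38% of 6453 genes (5.59% higher in pool 1 and 1.78% lower). On the TPM scale the share past 1.5-fold was thus not above that of all genes, and other scales gave other shares.

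Sv2c differed most. It had 969 expected counts in pool 1 and 284 in pool 2, a log2 ratio of 1.95, or 3.87-fold. Sv2c-201 had 10.1 TPM in pool 1 and 2.72 TPM in pool 2, and Sv2c-203 had 3.33 TPM in pool 1 and no counts in pool 2. Rab3b had 85 expected counts in pool 1 and 217 in pool 2, a log2 ratio of -0.81, and Dnm1 had 3199 and 2388 counts, a log2 ratio of 0.74. Of the 6 markers of molecular layer interneurons, 3 were higher in pool 1 and 3 lower. Those past 1.5-fold were Kit, with 11.6 TPM in pool 1 and 6.04 TPM in pool 2, and Prkcd, with 9.83 and 38.7 TPM. Of the 5 markers of Golgi or glycinergic neurons, 1 was higher in pool 1 and 3 lower. Only Sst passed 1.5-fold there, with 1.01 TPM in pool 1 and 13.4 TPM in pool 2. What part RNA of such cells had in the ratios of Sv2c, Rab3b and Dnm1 was not tested. Sv2c, Rab3b and Dnm1 passed 1.5-fold in the same direction on TMM-scaled counts, where Syt1 passed as well with a log2 ratio of -0.60, which makes 4 of 42 (9.52%) beside 9.33% of all genes. With the spike-in sum as the scale, 21 of the 42 genes passed beside 44.9% of all genes, and 20 of the 21 were lower in pool 1, as were 43.8% of all genes; Sv2c stayed higher in pool 1, and Dnm1 at 0.08 did not pass.

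Transcript length moved with the ratio over all genes. The median log2 ratio was -0.05 for the 6052 genes shorter than 2000 nt and 0.28 for the 1244 genes from 5000 nt upwards. The vesicle release genes were long, with a median length of 3831 nt against 2155 nt for all genes. The 8 of them of 5000 nt or more had a median of -0.12, and the 5 under 2000 nt had -0.18. From 2000 to 3000 nt the median of 6 was 0.20, beside 0.09 for all genes. From 3000 to 4000 nt that of 13 was 0.14 beside 0.19, and from 4000 to 5000 nt that of 10 was 0.06 beside 0.22. After adjustment of every gene for length and expression the median of the 42 genes was -0.13, against 0.00 for all genes. Then 7 genes (16.7%) passed 1.5-fold, above the 9.42% of all genes: Syt1, Unc13c, Rims1, Cplx2, Rab3b and Erc2 were lower in pool 1, and Sv2c was higher, while Dnm1 at 0.54 no longer passed.

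**Figure D4:**
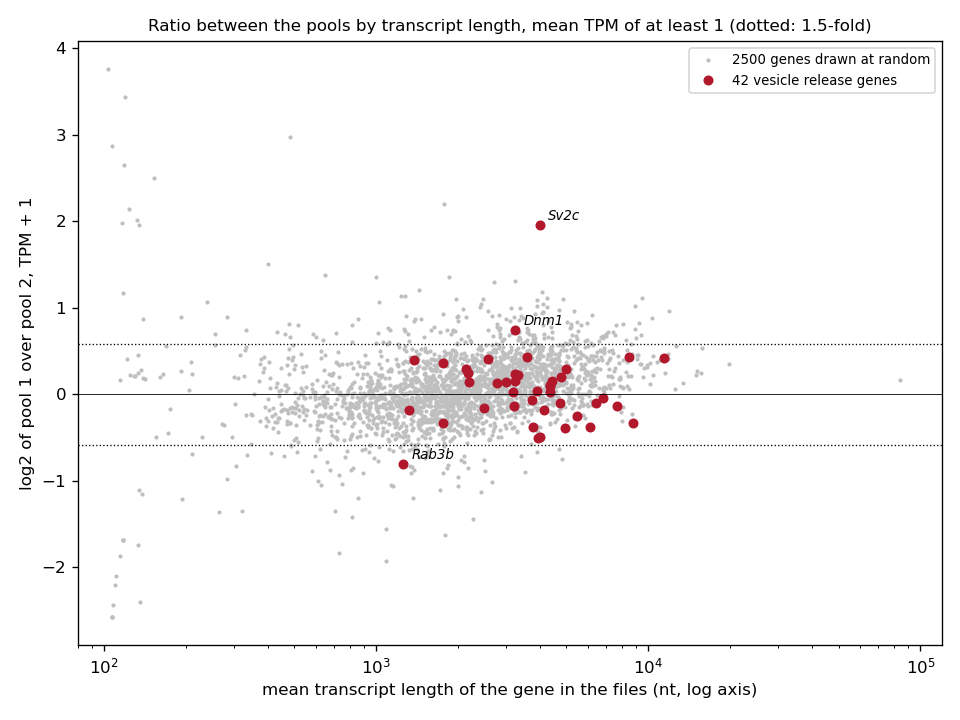
Log2 ratio of pool 1 over pool 2 (TPM plus 1) against mean transcript length (nt, log axis). Red points are the 42 vesicle release genes with a mean TPM of at least 1. Grey points are a random draw of genes that includes some of the 42. Dotted lines mark 1.5-fold. Sv2c, Dnm1 and Rab3b are the red points outside the dotted lines.

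Most of the genes kept the same main transcript in both pools. Of the 37 genes with 2 or more annotated transcripts in the files, 33 had the same leading transcript in both pools; among those with a mean from 1 TPM the count was 30 of 34, against 87% of all such genes, and at 10 or more it was 20 of 20, against 90.9%. The 4 exceptions were Erc1, Syn3, Syt3 and Syt9. Complete coding transcripts held less than 50% of the TPM of 10 genes, and of 7 of the 42 genes with a mean from 1 TPM, beside 17.5% of protein-coding genes. Those 7 were Bsn, Pclo, Erc1, Syn3, Synj1, Syt2 and Syt9.

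Among the genes over 50 TPM, 3 divided their signal between transcripts of at least 10% each. Napa-201, the coding form, held 62.9% of the gene's TPM in pool 1 and 61.7% in pool 2. The retained-intron transcript Napa-206 held 21.9% and 25.02%, and Napa-203 of the nonsense-mediated decay class held 13.7% and 12.0%. These short transcripts, of 495 and 525 nt, held 347 and 634 and 234 and 326 of the 6705 and 10550 expected counts in pools 1 and 2. Rab3a divided between the coding forms Rab3a-201, with 72.6% and 75.5%, and Rab3a-204, with 25.9% and 24.3%. Syt2, described above, was the third.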

How the data were processed

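RNA-seq was measured in 2 pools of 50 Purkinje cells, numbered by the labels. The authors deposited, per the file headers, expected counts (estimated reads, not normalized, some fractional), TPM values (scaled to the same total per library, spike-ins included), the percent of each transcript within its gene, and a standard deviation of each estimated count. The build is mm10 with GENCODE M4, per the submitters' processing notes. Aligner, quantification tool and strand setting are not given in the sources used here. Genes with an antisense partner are therefore less certain. Symbols, transcript types and coordinates came from GENCODE M21 on the same assembly. Stx4 was matched as Stx4a by a RefSeq synonym, and Vamp7 was not analysed here. Results of some further genes of the pathway are not reported here, and they were left out of the paralog groups.

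The members and lists were chosen with earlier results of these data known, and the paralog groups were divided after the data were seen. A gene was called detected from 1 TPM upwards in each pool. Ratios are log2 of pool 1 over pool 2 on TPM plus 1, over genes with a mean TPM of at least 1, and a log scale with a pseudocount understates ratios of low genes. Complete coding transcripts are protein-coding ones without an annotated incomplete end. Counting intervals are exact Poisson at 95% and cover counting error only, since reads are not independent molecules. Named in full were genes whose mean reached 100 TPM, the first and second of each family, those under the detection threshold and those past 1.5-fold, the 2 highest other genes per role, and transcripts of genes over 50 TPM with 2 or more at 10%.

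Rounded expected counts gave TMM factors in edgeR 4.0.16 and size factors in DESeq2 1.42.0 (R 4.3.3) as other scales, and lowess with a span of 30% in statsmodels 0.14.6 gave the adjustment for length and expression. Both were tested on simulated data. Tables and intervals were made in pandas 2.3.3 and scipy 1.17.1 under Python 3.11.15, with numpy 2.4.6, Biopython 1.88 for alignments and matplotlib 3.10.9 for figures. Alternatives were other thresholds, pseudocounts, scalings and filters, count shares, added paralogs and each pool alone. Complete coding transcripts, and the spike-in scale for genes past 1.5-fold, were added after the data were seen.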

Additional observations from a re-analysis of the deposited data

How the results depend on the processing

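The number of genes detected in both pools was 30 at 5 TPM, 46 at 0.1 TPM, 45 at 10 expected counts and 38 over complete coding transcripts, and 42 or 43 in a single pool. The median level was 8.39 to 10.4 TPM in a single pool. The direction of the median ratio rested on the scale: it was -0.037 on TMM-scaled counts, -0.032 with DESeq2 size factors, -0.55 on the spike-in sum and -0.13 after adjustment for length and expression. All genes had medians of 0.01, 0.01, -0.53 and 0.00 under the same settings, so the whole table moved with the spike-in scale; the cause was not tested. The count past 1.5-fold was 4 with TMM or DESeq2 scaling and over complete coding transcripts. It was 7 after adjustment, 1 at a mean TPM of 10 or more and 21 on the spike-in sum. On the spike-in sum 44.9% of all genes passed. Of the genes that passed there, 20 of the 21 were lower in pool 1, beside 5782 of 5933 over all genes.

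Leaders changed in 4 settings of the paralog shares. By expected counts the share of Rims1 was 46.4% and that of Erc1 48.9%, with Rims2 and Erc2 ahead. Over complete coding transcripts Rims1 held 49.1% and Erc1 37.8%. With other paralogs added, Vamp1 held 25.2%, behind Vamp8. In single pools the share of Rims1 was 44.3% to 57.5%, with Rims2 ahead in pool 1. The same transcript led in 34 of 37 genes by expected counts. The leader by the mean of both pools also led in pool 1 for 35 genes and in pool 2 for 35. These were not all the same genes, and 33 had 1 leader in both. No paired analysis was possible because there was 1 group. Spreads over 2 pools left the order of most neighbouring genes unsettled, and the 6 of the 48 genes with a mean under 1 TPM rest on 48 counts or fewer in each pool.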
